A study of Mus musculus with 19 samples.

Results

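The regions described here are the internal open reading frames (ORFs) of B16-F10 mouse melanoma cells: translated frames that lie inside an annotated coding sequence but are read in another frame. They are the entries of ORF type internal in the authors' database of non-canonical ORFs (nuORFs), together with the rows of that type in the authors' lists of nuORFs larger in Mettl5 knockout (KO) cells and larger in scrambled control (SCR) cells. There were 430 of them among 12342 nuORFs. The database held 426 and the lists held 117, of which 113 were also in the database. The 117 listed ORFs were 63 of 1383 nuORFs in the KO list (4.56%) and 54 of 1614 in the SCR list (3.35%). No other selection was made, and no measured value entered the rule, although a place in a list was itself set by the authors from these libraries. The lists are named for TPM, and TPM per genotype was not used here.

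A coding sequence can in principle be read in 3 frames, and ribosomes normally stay in the one set by the start codon. An initiating ribosome scans from the 5′ end, and where it passes the annotated start codon (leaky scanning) it can start at a later one, which may lie in another frame. The product then shares the bases of its host gene but none of its amino acid sequence. Ribosome profiling detects such frames because footprints place the ribosomal P-site on a codon with a period of 3 bases, so a second frame appears as P-sites out of step with the host. Peptides from such frames can be presented on MHC class I. METTL5, together with its partner TRMT112, methylates 18S ribosomal RNA.

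The series compared B16-F10 cells, a melanoma line of C57BL/6 mice, with a Mettl5 knockout against cells with a scrambled control. Ribosome footprints and input RNA of cultured cells gave 2 libraries per genotype and assay, and both genotypes were treated with cycloheximide (100 µg/ml for 8 min), which arrests elongating ribosomes, before the footprints were taken. Blood T-cell receptor and tumour single-cell samples are in the series and were not used here. The labels name neither clones nor separate cultures, so p-values measure only the spread between these libraries, which may be technical. Total gene counts were 38968000 to 48692578 in input RNA and 14555963 to 31301806 in footprints, and host genes of internal ORFs took 3.96 to 4.35% and 2.21 to 2.63% of them. Mettl5 was at 9.47 and 9.61 CPM (counts scaled to the library's total) in the SCR libraries of input RNA, against 6.22 and 6.15 in KO. Its log2 fold change was -0.56 (SE 0.13, adjusted p = 0.0284), and in footprints it was -0.35 (SE 0.09, adjusted p = 0.112), so Mettl5 reads were not lost in the libraries labelled KO. The fall in RNA missed the threshold without SCR replicate 1 (adjusted p = 0.122), SCR replicate 2 (0.116) or KO replicate 1 (0.0545). Melanocyte markers summed to 13000 to 13500 CPM in input RNA, whereas markers of blood cells summed to 1.33 to 3.18 (3 of 5 at 0), of fibroblasts to 6.61 to 10.7 (1 of 3 at 0), of endothelium to 0.205 to 0.464 (2 of 3 at 0) and of keratinocytes to 0 (2 of 2 at 0).

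Internal ORFs made up 3.53% of the database's nuORFs. Upstream ORFs (uORFs, in the 5′ untranslated region) made up 33.4%, and uORFs that run into the coding sequence 10.3%. Internal ORFs were 8 to 276 codons long with a median of 32 codons (quartiles 19 and 54), against 26 for uORFs, 41 for overlapping uORFs, 37 for downstream ORFs and 449 for annotated ORFs. An exon junction lay within 214 of them (50.2%), compared with 25.8% of uORFs and 59.5% of overlapping uORFs. With the listed ORFs they fell in 396 host genes. Of the 395 host genes in the database, 27 held more than 1 entry. Bzw1, Nfatc3, Kank1 and Dnah7b each held 3 entries, the highest number in a gene. The 426 entries stood for 419 distinct ORFs by position, because some were entered under more than 1 gene.

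The frame of each database entry was read against the listed annotated ORF of its gene. Overlap was found for 373 entries, of which 331 lay wholly inside the host ORF. In 315 of the 373 (84.5%) the internal ORF started on the second base of a host codon, called frame +1 here, and in 56 (15.0%) on the third base, called frame +2. The remaining 2 were in frame with the host. Overlapping uORFs were divided otherwise, with 42.3% in frame +1 and 55.1% in frame +2 among 1098. For 37 internal ORFs the listed annotated ORF of the gene did not overlap them, and for 16 no annotated ORF was listed. These include 3 on the mitochondrial chromosome, singled out after their positions were seen: 15 codons in mt-Co1, 41 in mt-Co3 and 18 in mt-Nd4.

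Hosts of internal ORFs also held other nuORFs. A uORF was listed for 111 of the 395 host genes in the database (28.1%), where 23.2% of the 12270 genes with an annotated ORF had one. An overlapping uORF was present in 36 (9.11%, against 9.9%) and a downstream ORF in 33 (8.35%, against 9.07%). In all, 156 hosts (39.5%) carried a nuORF of another type. These shares are a description of the database and were not tested.

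For the 117 listed ORFs the authors deposited the start codon, the P-sites in each of the 3 frames and an RPKM of the P-sites in the ORF's own frame. All 117 RPKM values, and those of the other listed nuORFs, resolve to 1 total of 85772612 P-sites, so they describe all libraries pooled. They carry no replicates and no value per genotype. ATG was the start codon of 103 of the 117 (88.0%), CTG and GTG of 5 each and ACG of 4. The share of ATG was 88.9% in the KO list and 87.0% in the SCR list. It was 48.7% among listed uORFs, 37.2% among overlapping uORFs, 63.3% among downstream ORFs and 60.8% over all 2997 listed nuORFs. Nearer to the internal ORFs were downstream ORFs that overlap the coding sequence, at 76%, and ORFs on transcripts without an annotated coding sequence, at 81.7%. The 4 internal ORFs with an ACG start, in Eif1b, Spidr, Sgk2 and Tor1aip1, were the only listed internal ORFs that the database does not hold, and none of the 160 listed nuORFs of any type with an ACG start is in it.

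**Figure D1:**
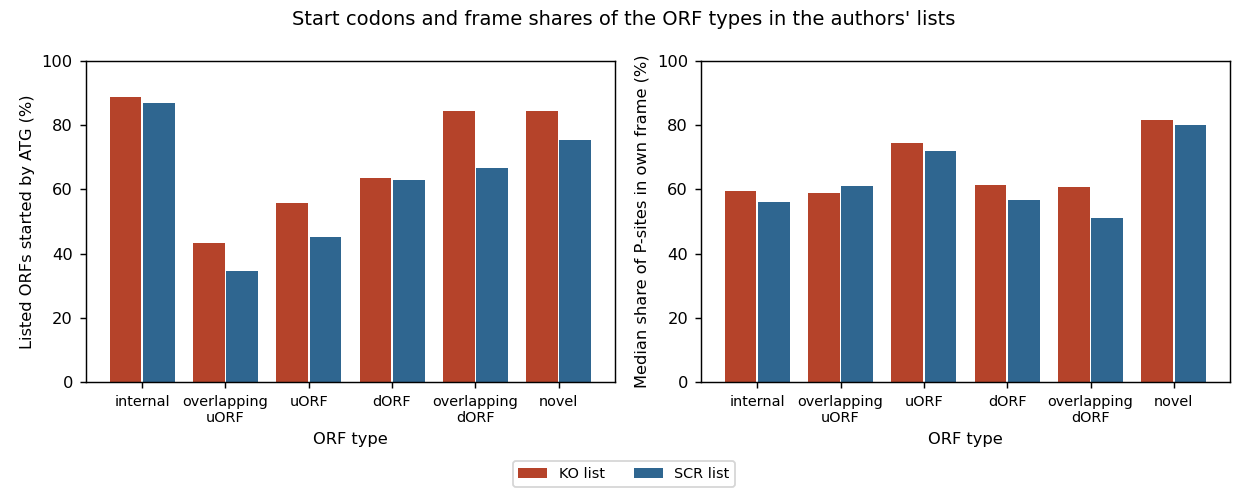
Left, the share of listed ORFs with an ATG start by ORF type; right, the median share of P-sites in the ORF's own frame; red bars are the KO list and blue bars the SCR list. Internal ORFs stand at 88.9 and 87.0% ATG, above uORFs (55.9 and 45.3%), and at median own-frame shares of 59.4 and 56.2%, below uORFs (74.4 and 72.1%); the bars at the far right are ORFs on transcripts without an annotated coding sequence.

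Own-frame P-sites of the 117 ranged from 8 to 813 with a median of 34, and 31 ORFs had fewer than 20. RPKM ranged from 0.47 to 263 with a median of 4.15, between downstream ORFs at 2.33 and uORFs at 6.32. The medians were 30 P-sites and 4.33 RPKM in the KO list and 36.5 P-sites and 3.74 RPKM in the SCR list. Footprint totals were larger in SCR libraries (28059683 and 31301806 gene counts) than in KO libraries (14555963 and 21366608). Pooled values therefore weigh SCR more, and a difference between the lists cannot be told apart from depth. The pooled P-sites were concentrated in few ORFs, since the 10 ORFs with at least 100 own-frame P-sites held 43.1% of all 6708. The authors' adjusted p-value of translation was at most 0.0499 for every listed nuORF, which shows the threshold of the lists and not a result.

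In the KO list the most own-frame P-sites were in Vdac2, which encodes a channel of the outer mitochondrial membrane. Its ORF has 20 codons, starts 18.3 codons after the annotated ATG and spans an exon junction on chromosome 14, from 21882973 to 21883883 (GRCm39, plus strand, stop codon included). It had 405 P-sites in its own frame, 461 in the host frame and 91 in the remaining frame. The next was Eif1b, a paralogue of the start-site selection factor eIF1. Its ORF has an ACG start and only 8 codons, from 120323296 to 120323322 on chromosome 9 (plus strand), with 262, 134 and 32 P-sites and the highest RPKM of the KO list at 127. The ORF of Dhdds, a subunit of the enzyme that makes dolichol chains, starts 1.67 codons after the annotated start, nearer than any other listed internal ORF. It had 115 P-sites in its own frame and 217 in that of the host. The 8-codon ORF of Ctnna1, the adhesion protein alpha-catenin, had 89 own-frame P-sites against 39 in the host frame.

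Lower in the KO list, Rhebl1 (88 own-frame P-sites, 58 codons), Slc44a3 (79, 8 codons), Gpbp1l1 (63, 51 codons) and Jade1 (59, 37 codons), a subunit of histone acetyltransferase complexes, each had more P-sites in the ORF's frame than in the host's. The ORF of Trmt10b, a tRNA methyltransferase, differed in its second frame: 78 P-sites were in its own frame, 45 in the remaining frame and 21 in the host frame. The repair scaffold Spidr was the 1 gene with an internal ORF in each list. Its KO-list ORF has an ACG start, 10 codons and frame +2, with 63 own-frame and 23 host-frame P-sites. Its SCR-list ORF has an ATG start, 62 codons and frame +1, with 74 own-frame and 130 host-frame P-sites. By RPKM, Idi1 and Nudt7 (both 9.39), Zfp958 (8.42) and Prrc2c (8.26) also ranked in the first 10 of the KO list. The Prrc2c ORF is an 8-codon CTG frame at 97.6% of the coding sequence, the highest relative position among the listed internal ORFs.

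In the SCR list Cdk2, the cyclin-dependent kinase of S phase, was first on both counts. Its 12-codon ORF lies on chromosome 10 from 128538323 to 128538361 (minus strand), 135 codons after the annotated start. It had 813 own-frame, 484 host-frame and 60 remaining P-sites and an RPKM of 263. Next was Prrc2b, an RNA-binding protein of a family linked to leaky scanning, with a 107-codon ORF in frame +2. There the host frame, with 1067 P-sites, exceeded the ORF's own 547. Tmem223 had 192 own-frame P-sites against 116 in the host frame. Klhdc2, a substrate receptor of a ubiquitin ligase, had 157 against 119, with a start 2.33 codons after the annotated one. Arih1, a ubiquitin ligase, also had 157, but 253 in the host frame over 106 codons.

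Tmem251 (141 own-frame P-sites against 93), Selenom (101 against 72), Angptl6 (93 against 56) and Ahnak2 (84 against 20) were also among the 10 of the SCR list with most P-sites. Selenom encodes a selenoprotein of the endoplasmic reticulum. By RPKM, Ythdf3 (22.5), an m6A reader, Dctpp1 (15), Smg5 (14.4), a factor of nonsense-mediated decay, Gtf3a (10.8) and Rfc1 (9.93) ranked in the first 10. Of the 117, the shortest were 7 ORFs of 8 codons, 5 in the KO list and 2 in the SCR list, Zfp369 among them. All 9 ORFs of 100 codons or more were in the SCR list, where the median was 42.5 codons, against 32 in the KO list. Listed uORFs had medians of 28 codons in the SCR list and 23 in the KO list.

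**Figure D2:**
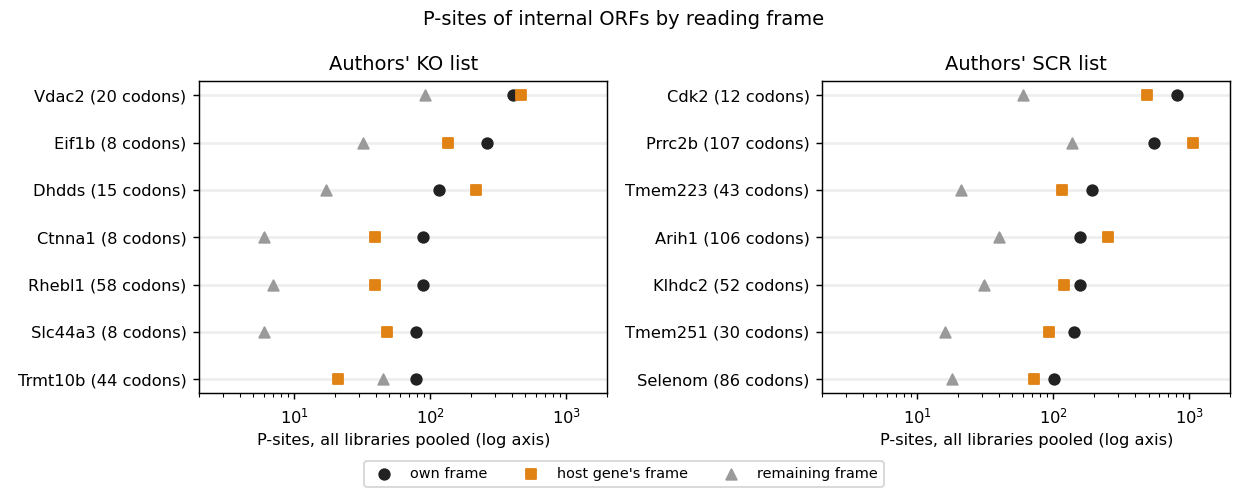
P-sites of all libraries pooled, on a log axis, for the 7 internal ORFs with the most own-frame P-sites in the KO list (left) and the SCR list (right); circles are the ORF's own frame, squares the frame of the host gene and triangles the remaining frame. In Vdac2, Dhdds, Prrc2b and Arih1 the squares lie to the right of the circles, and in Trmt10b the triangle (45) lies to the right of the square (21).

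Of the 117 ORFs, 116 were out of frame with the annotated ORF, 90 in frame +1 (77.6%) and 26 in frame +2. The exception was Abhd1, a gene annotated here as a polymorphic pseudogene transcript, whose 235-codon ORF starts 8 codons after the annotated start in the same frame and is the longest listed. It had 29 own-frame P-sites of 40. Over the 116, the P-sites on the ORF numbered 6679 in its own frame (50.2%), 5544 in the host frame (41.6%) and 1095 in the remaining frame (8.22%). Per ORF the medians were 56.6%, 34.8% and 6.44%. Every one of the 116 had P-sites in the host frame, and 12 had none in the remaining frame. The own frame held the most P-sites in 97 ORFs and the host frame in 19, all of them ATG-started. The remaining frame never exceeded the ORF's own, and exceeded the host frame in 9. All of these ORFs had passed the authors' threshold on translation in these libraries, so the counts are a description and not evidence of translation.

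Read one ORF at a time, the 95% interval of the own-frame share (exact binomial, counting error only) lay above 50% in 35 of the 117, below it in 9 and across it in 73. The ORFs were already selected by the authors' threshold on translation, so the intervals only describe the listed ORFs. Prrc2b was among the 9, at 31.2% (29.1 to 33.5%), as was Vdac2 at 42.3% (39.2 to 45.5%). Cdk2 was among the 35, at 59.9% (57.2 to 62.5%). The lowest share was that of Tdp1, a DNA repair phosphodiesterase, at 17.8% of 107 P-sites, and the highest that of Kank1, at 92.9% of only 14; both were singled out after their values were seen. In the 10 ORFs with at least 100 own-frame P-sites the own frame held 45.4% and the host frame 47.4% of all P-sites, and in the other 106 out-of-frame ORFs 54.5 and 36.4%. The median own-frame share of the other listed types was 54.8% in overlapping downstream ORFs, 60% in downstream ORFs, 72.6% in uORFs and 81.2% in ORFs on transcripts without an annotated coding sequence, and in overlapping uORFs it was also 60%.

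The internal start lay in the first 50% of the coding sequence in 107 of the 117. Its median distance from the annotated start was 46.7 codons (quartiles 21.3 and 94.3), or 10.1% of the coding sequence. For 58 ORFs (49.6%) it lay in the first 10%. The 10 in the last 50% were 8 of the KO list and 2 of the SCR list. Median distances were 34.3 codons in the KO list and 52 in the SCR list. ORFs in frame +2 started earlier than those in frame +1, with medians of 28.2 and 54.8 codons, and the 14 near-cognate starts had a median of 29.5 codons. In the database, for which start codons were not listed, the median distance from the listed annotated start was 54.3 codons (n = 335).

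**Figure D3:**
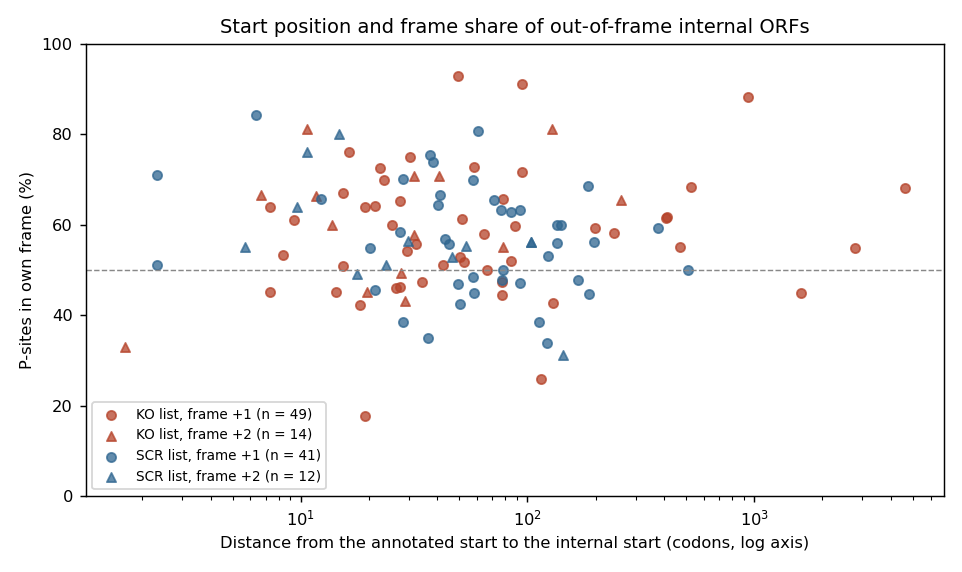
Share of P-sites in the own frame against the distance from the annotated to the internal start (codons, log axis) for the 116 out-of-frame ORFs, by list (colour) and frame (circles +1, triangles +2); the dashed line is 50%. The median distance is 46.7 codons, with quartiles of 21.3 and 94.3 codons, and the lowest share is 17.8%.

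The deposited peptides of the internal ORFs, 115 after ORFs entered under a pair of genes were counted once, held 5015 residues. Arginine made up 9.25% of them, and basic residues 13.6% against 5.48% acidic ones. The acidic share was 7.51% in uORF peptides and 12.1% in those of ORFs on transcripts without an annotated coding sequence. Frames differed: glycine was 12.3% of the residues in frame +2 and 5.57% in frame +1. The 2 ORFs entered under a pair of genes were those of Dnaaf2 and Lrch4, each shared with an overlapping predicted gene. For Dnaaf2 the frame depends on which of the pair is taken as host: 24 of its 80 P-sites were in the host frame when Dnaaf2 is taken and 12 with the other gene.

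Of the 40 genes listed for start-site selection, 5 were hosts of internal ORFs. Among the 12270 genes with an annotated ORF in the database 380 were (3.1%), and the difference was not tested. The factors were listed with results of these data known, and abundance was not matched. In input RNA Eif4g1, Eif4g2, Bzw1 and Bzw2 were at 161 CPM or more in every library, and Eif1b at 24.4 to 30 CPM. Genes with an annotated ORF had a median of 5.19 log2 CPM. Bzw1, a mimic of eIF5, held 3 ORFs of 18, 9 and 35 codons, starting 21.3, 40.3 and 54.3 codons after the annotated start. Its paralogue Bzw2 held 2, of 28 and 21 codons, at 19.3 and 63.3 codons. Eif4g2 held 2 (33 and 22 codons), Eif4g1 held 1 of 8 codons, and Eif1b held 1 of 18 codons in the database beside its listed ACG frame. All those that overlapped the listed annotated ORF were in frame +1. None of these ORFs except the ACG frame of Eif1b was in either list, so no P-sites are given for them.

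Among genes with an annotated ORF 3.1% held an internal ORF, and of 10 genes listed for a known second reading frame 1 did. It was Polg, the mitochondrial DNA polymerase, in which an overlapping frame with a CTG start, POLGARF, is known. The listed ORF starts with CTG, has 201 codons in frame +2, begins 23.7 codons after the annotated start and spans 79111573 to 79114888 on chromosome 7 (minus strand). Whether its start or its frame is that of POLGARF was not tested. It stood in the SCR list with 41 own-frame, 34 host-frame and 5 remaining P-sites, an own-frame share of 51.2% (39.8 to 62.6%) and an RPKM of 0.793. Genes of that list without an internal ORF include Gnas, Cdkn2a, Atxn1, Prnp, Tyrp1, Irag1, Rpp14 and Oaz1. The list was not limited to frames that begin inside the coding sequence, as those of Rpp14 and Oaz1 do not. Cdkn2a had 0 counts in every library of input RNA and Irag1 was at 0 to 0.58 CPM, so an ORF could hardly be found in either.

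Because the ORF values are pooled, genotypes were compared through the host genes, whose counts come per library. Gene counts take in reads of the host frame and the internal frame together, so the fold changes below are those of the gene. In bulk cultures, fewer cells with an RNA and less of it per cell cannot be told apart. In input RNA 390 of the 396 hosts were tested; 50 rose (12.8%) and 52 fell (13.3%) in KO cells, where 9.56% of all 20025 genes rose and 7.21% fell. Hosts were more abundant than the genes tested, with a median of 5.78 against 3.17 log2 CPM. Among the 12270 genes with an annotated ORF in the database, which had a median of 5.19 log2 CPM, 14.2% of those tested rose and 10.7% fell. The median log2 fold change was -0.01 in hosts and in all genes.

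The host with the smallest p in input RNA was Col1a2, a chain of type I collagen, at 10.2 and 11.7 CPM in SCR and 29.3 and 29.6 in KO libraries. The KO libraries lay above the SCR libraries without overlap, which adds no support to a gene chosen by p. Its log2 fold change was 1.5 (SE 0.1, adjusted p = 6.86e-04). Its 83-codon KO-list ORF had 15 own-frame P-sites. Slc44a3 rose by 0.64 (SE 0.06), Tenm4 by 0.58 and Ccdc91 by 0.5. Also higher were Mospd3 (0.74), Kansl2 (0.46), Tcf19 (0.42), the melanosome transporter Slc45a2 (0.34), Traf4 (0.33) and Hnrnpdl (0.3). Epb41, a protein of the membrane skeleton, fell most clearly, from 167 and 166 to 104 and 106 CPM, a log2 fold change of -0.59 (SE 0.05, adjusted p = 0.00138). Cacnb3 (-0.76), Zkscan8 (-0.62), the Hippo pathway factor Tead2 (-0.54), Bicral (-0.41), Vmp1 (-0.39), Atg9a (-0.38), Aff1 (-0.35), Arhgef11 (-0.33) and Iqsec1 (-0.28) were lower.

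Of these 20 calls in input RNA, 11 held when any 1 library was left out, and without SCR replicate 1 only 12 held. Leaving out SCR replicate 1 lowered the number of hosts called from 102 to 21, and leaving out SCR replicate 2 lowered it to 38. With no filter on low counts it was 32.

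The hosts of the ORFs with most P-sites were compared in the same way. In input RNA, Vdac2 had 306 and 331 CPM in SCR libraries against 358 and 348 in KO, a rise of 0.22 on the log2 scale (SE 0.06, adjusted p = 0.0443), and at 245 and 257 against 301 and 313 CPM in footprints (0.18, SE 0.06, adjusted p = 0.176). Cdk2, host of the first ORF in the SCR list, fell in input RNA from 491 and 481 to 389 and 381 CPM (-0.27, SE 0.05, adjusted p = 0.0125). Its footprints were at 297 and 292 in SCR and 256 and 271 in KO libraries, also -0.27 but not past the threshold (SE 0.06, adjusted p = 0.0946). The difference of Eif1b was -0.06 in RNA and 0.09 in footprints, and that of Dhdds 0.13 and -0.04, with no adjusted p under 0.05. Without SCR replicate 1 or SCR replicate 2 of input RNA neither Vdac2 (adjusted p = 0.313 and 0.0802) nor Cdk2 (0.0986 and 0.067) passed, and without KO replicate 1 Vdac2 did not (0.0867). Polg was at 0.17 in input RNA (adjusted p = 0.0665) and -0.15 in footprints (adjusted p = 0.256).

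In footprints 383 hosts were tested. None rose, where 0.51% of all 16878 genes did, and 2 fell (0.522%), where 1.78% of all genes did. Among genes with an annotated ORF 0.582% rose and 2.41% fell. With an unadjusted p under 0.05 there were 94 hosts of 383, beside 3299 of 11508 genes with an annotated ORF. DESeq2 called 8 hosts higher and 18 lower of 270, and the share of all genes in that fit is not given here. The 2 that fell were Atg9a, a lipid scramblase of autophagy, and Ahnak2, a giant scaffold protein. Atg9a went from 62.7 and 60.8 CPM in SCR to 48.1 and 47.8 in KO libraries (-0.47, SE 0.05, adjusted p = 0.036). Ahnak2 went from 310 and 299 to 229 and 236 CPM (-0.5, SE 0.06, adjusted p = 0.0374). For both, the groups did not overlap, but both were chosen by p in these same libraries, so this adds no support. Ahnak2 carries a 42-codon SCR-list ORF, and the ORF of Atg9a is in neither list. Neither call held when any 1 library was left out, with adjusted p from 0.123 to 0.162 for Atg9a and 0.128 to 0.161 for Ahnak2. Without SCR replicate 2, or without KO replicate 1, 1 host was called.

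**Figure D4:**
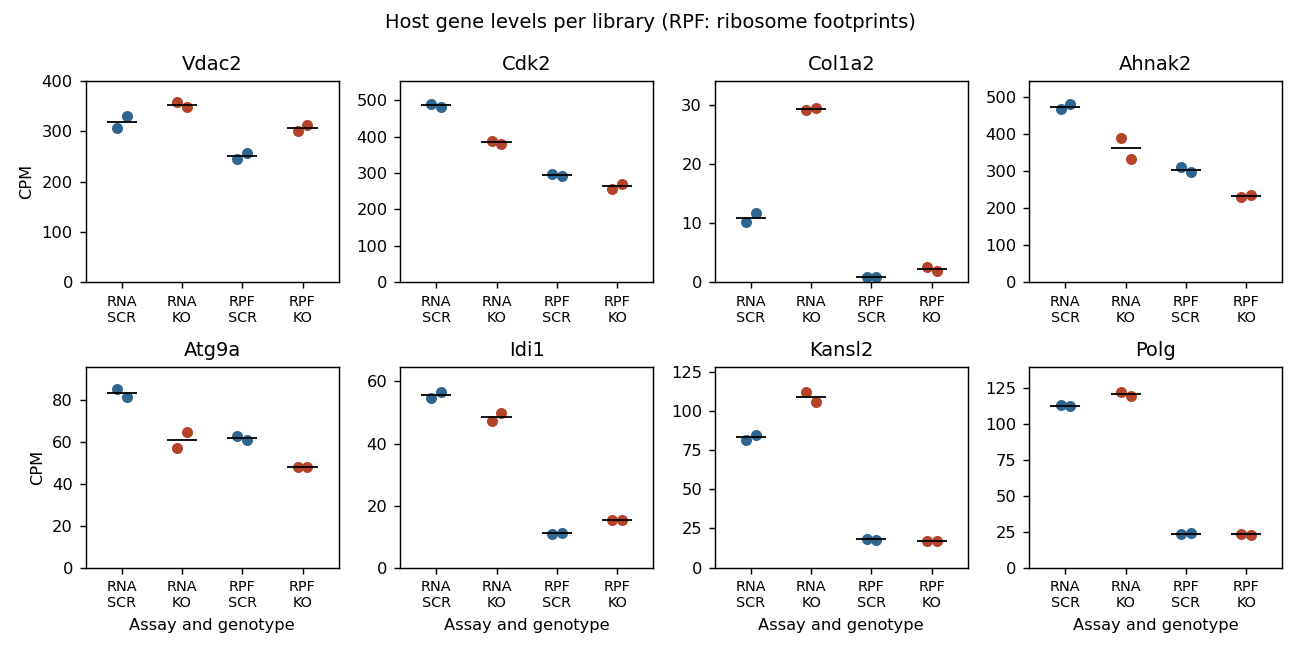
CPM per library (points) and group mean (lines) of 8 host genes in input RNA and in ribosome footprints (RPF), SCR in blue and KO in red. The KO points of Atg9a and Ahnak2 lie below the SCR points in both assays, those of Cdk2 likewise, and those of Col1a2 lie above.

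Hosts of KO-list and SCR-list ORFs differed little in input RNA, with medians of 0.01 and 0.05. In footprints the medians were 0.08 for hosts of KO-list ORFs, 38 of 61 of them above 0, and -0.09 for hosts of SCR-list ORFs, 34 of 53 below 0; the median of all genes was 0.01. The lists were drawn by the authors from these same footprints, and host reads and ORF reads share bases, so the selection and a change of the host cannot be told apart, and the values are given as a description.

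Translational efficiency, the ratio of footprints to input RNA, was tested by the genotype by assay term of a fit to the 8 libraries of cultured cells. Of 392 hosts tested, 4 rose (1.02%), where 0.788% of all 23211 genes did, and 11 fell (2.81%), where 3.4% did. Hosts were more abundant than the genes tested, with a median of 5.14 against 2.36 log2 CPM. Among genes with an annotated ORF (median 4.83), 1.26% rose and 5.65% fell. The share of hosts that rose was near that of these genes, and no difference was tested. With DESeq2's size factors in the same fit, 8 hosts rose and 9 fell. Jmjd1c, a histone demethylase family member (0.51, SE 0.1, adjusted p = 0.0427), Idi1, an isomerase of the mevalonate pathway, and Ylpm1 (0.48) rose. Idi1 footprints were at 10.9 and 11.2 CPM in SCR and 15.5 and 15.4 in KO libraries, while input RNA was at 54.7 and 56.6 against 47.1 and 49.9. Its efficiency was higher by 0.47 (SE 0.1, adjusted p = 0.0427), and its 24-codon KO-list ORF had 58 own-frame against 9 host-frame P-sites.

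The clearest fall by p was that of Kansl2, a subunit of the NSL acetyltransferase complex. Its input RNA went from 81.7 and 84.9 to 112 and 106 CPM while footprints stayed at 18.2 and 17.8 against 17 and 17, a change of -0.69 in efficiency (SE 0.09, adjusted p = 0.0205). Nckap5l (-0.73), Tmem164 (-0.63), Sgsm2 (-0.49), Sh3tc2 (-0.48), Usp12 (-0.42) and Traf4 (-0.36) also fell. So did Zmat3 (-0.89) and Aen (-0.6), both known as p53 targets, and Dctpp1 (-0.64), a dCTP pyrophosphatase. Aen carries a KO-list ORF and Dctpp1 an SCR-list ORF. Polg was at -0.36 (SE 0.08, adjusted p = 0.0535) and Prrc2b at -0.35 (SE 0.08, adjusted p = 0.0526), just outside the threshold. In the authors' deposited table the adjusted p was 0.0475 for Polg, 0.028 for Prrc2b, 0.0352 for Idi1 and 2.97e-04 for Kansl2.

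None of the 13 named calls in efficiency held in every fit with 1 library left out. Without SCR replicate 1, SCR replicate 2 or KO replicate 1 of input RNA edgeR called 0 hosts, with 86, 81 and 78 at an unadjusted p under 0.05. Without SCR replicate 1 of footprints 9 were called, and without KO replicate 2 of footprints 25. DESeq2 on all libraries called 42 of 373, and the share of all genes in that fit is not given here.

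**Figure D5:**
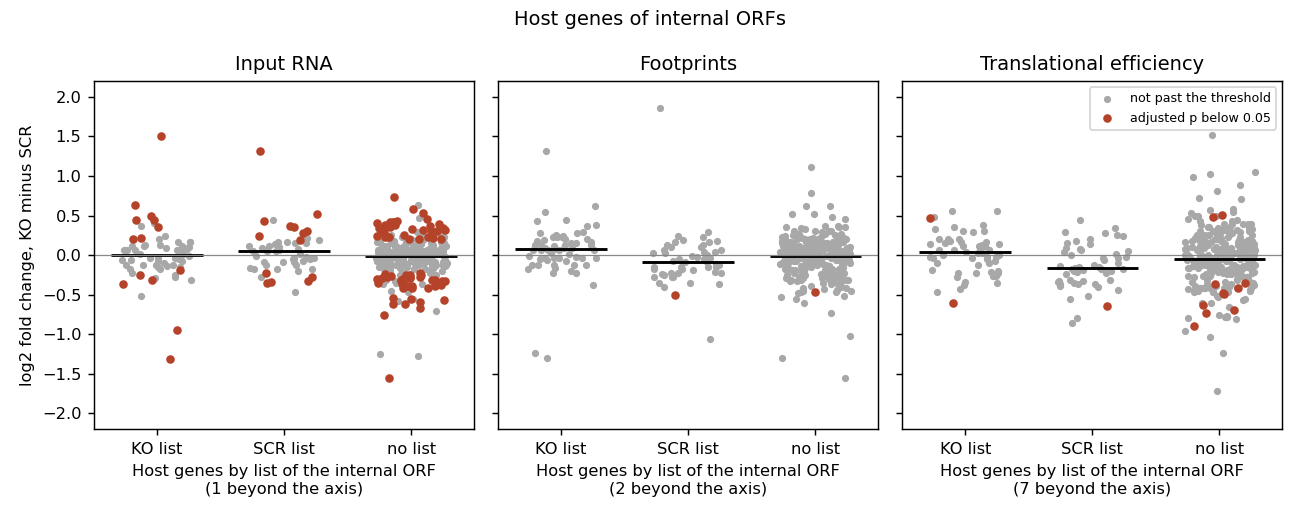
Log2 fold change (KO minus SCR) of the host genes in input RNA, footprints and translational efficiency, by the list their internal ORF is in; lines are medians, red points have an adjusted p below 0.05, and hosts beyond the axis are counted under each panel. Called hosts number 102 of 390 in input RNA, 2 of 383 in footprints and 15 of 392 in efficiency. Of genes with an annotated ORF, 2901 of 11664, 344 of 11508 and 824 of 11931 were called.

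The factors of start-site selection were compared as the genes that act on such starts. In input RNA 13 of the 40 rose and none fell, with a median of 0.14, where 9.56% of all genes and 14.2% of those with an annotated ORF rose. The genes were listed with results of these data known, and no test of the list was made. They include Eif3b (0.48, SE 0.05), Eif4h (0.48), Eif3g (0.43), Eif4a1 (0.33), Denr (0.28), Eif5 (0.23) and Eif1 (0.22), the factor that guards against wrong starts. Among the hosts of internal ORFs, Eif4g2 rose by 0.22 (SE 0.04, adjusted p = 0.0176) and Eif4g1 by 0.21 (SE 0.04, adjusted p = 0.017), whereas Bzw1 was at 0.09 (adjusted p = 0.212) and Bzw2 at 0.08 (adjusted p = 0.337). In footprints edgeR called none of the 40 (median 0.12), and DESeq2 called 4 higher. At an unadjusted p under 0.05 in edgeR there were 12 of the 40, beside 3299 of 11508 genes with an annotated ORF. In translational efficiency edgeR called none (median -0.08), and DESeq2 called 5 lower. There 9 of the 40 had an unadjusted p under 0.05 in edgeR, beside 3768 of 11931 genes with an annotated ORF. The share of all genes in the DESeq2 fits is not given here. Of the genes with a known second frame, 9 were tested in input RNA, where 9.56% of all genes rose and 7.21% fell: Oaz1 rose by 0.39 (adjusted p = 0.0307), and Prnp (-0.46, adjusted p = 0.0157) and Atxn1 (-0.34, adjusted p = 0.0175) fell. Prnp was also lower in footprints (-0.49, SE 0.05, adjusted p = 0.0352), 1 of 8 tested there, where 1.78% of all genes fell. None of these 3 held an internal ORF in the database or the lists. In input RNA 2 of the 40 factors rose without SCR replicate 1, 4 without SCR replicate 2 and 3 with no filter on low counts. Without either of those SCR libraries edgeR called none of the genes with a known second frame and neither Eif4g1 nor Eif4g2; in each fit 3 of the 9 had an unadjusted p under 0.05. The footprint call of Prnp was lost without any 1 of the 4 libraries (adjusted p from 0.121 to 0.162) and with the replicate number as a block (adjusted p = 0.109).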

How the data were processed

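The authors deposited 1 expected count per gene and library, as a whole number. A count column named POOL was read as KO because the columns beside it are named SCR. The submitters' processing notes name STAR 2.7.10a, StringTie 2.1.7 and GRCm39, with no role or order. Each listed ORF has, as deposited, a count of P-sites in its own frame, P-sites in the other frames, an RPKM and an adjusted p-value. Which program called the ORFs is not stated in those sources. The authors' deposited efficiency table gives, for SCR and for KO, the ratio of footprints to RNA, with a log2 fold change between them. Footprints came from RNase digestion (40 min at 22 C), per the labels.

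Members, lists and tests were chosen with earlier results of these data known. Named were, per list, the 10 ORFs with most own-frame P-sites and the 10 of highest RPKM, the shortest and longest ORFs, ORFs of listed genes, and up to 10 called hosts per direction by smallest p; genes without a proper name were only counted, and some genes that the rule names are not reported here. Hosts of 3 ORFs, hosts of ACG starts, shared or extreme ORFs and mitochondrial entries were named after their values were seen. Frames were taken from ORF and annotated starts in the transcript, and positions were written counting from 1. No genome or protein sequence of the build was used here, so no sequences are printed. Counts were fitted across all genes with edgeR 4.0.16 in R 4.3.3 (TMM, filterByExpr, quasi-likelihood F test, two-sided, Benjamini-Hochberg, threshold 0.05), checked on simulated data first, with DESeq2 1.42.0 as an alternative. Log2 fold changes are KO minus SCR. ORF summaries used Python 3.11.15 with pandas 2.3.3 and scipy 1.17.1.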

Additional observations from a re-analysis of the deposited data

How the results depend on the processing

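With 2 libraries per group the counts of called hosts depend on the fit. With all hosts and edgeR, input RNA gave 102 calls, footprints 2 and efficiency 15. DESeq2 called 26 of 270 in footprints and 42 of 373 in efficiency, with no share of all genes given here. Without the filter on low counts 32 were called in input RNA and 9 in footprints. With 1 library left out, the number ranged from 21 to 124 in input RNA, 1 to 3 in footprints and 0 to 25 in efficiency. Among hosts of listed ORFs alone, which are fewer genes, 28 of 114, 1 of 113 and 3 of 114 were called. Of genes with an annotated ORF it was 2901 of 11664, 344 of 11508 and 824 of 11931. The labels do not say that replicate numbers pair libraries. Across genes, same-numbered libraries of the 2 genotypes hardly deviated together (r = 0.0443 for input RNA, r = 0.0402 for footprints). Such a correlation cannot exclude that they were prepared together, and the main fit did not use the number. With the replicate number as a block, edgeR called 108 hosts in input RNA, 0 in footprints (62 at an unadjusted p under 0.05) and 7 in efficiency. The causes were not tested. Named calls kept their direction under every alternative; 105 of 332 such values missed the threshold. The shares and medians of the listed ORFs moved little when each stop codon was counted once, when 10 own-frame P-sites were required, or with ATG starts only. The own-frame share was lower when P-sites were summed, at 50.2% against a median of 56.8%. In the 10 ORFs with at least 100 own-frame P-sites the summed share was 45.4%, below the 47.4% of the host frame. P-sites per ORF limit the precision, and 31 ORFs had fewer than 20.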
